A study of Mus musculus with 12 samples.

Results

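The axon guidance genes examined here were the 66 autosomal protein-coding mouse genes that encode semaphorins, plexins, ephrins, Eph receptors, Slits, Robos, netrins (with the netrin-G proteins) and the netrin receptors of the Unc5 family and Dcc. They were chosen by name among the 20720 autosomal protein-coding genes with an annotated protein-coding transcript in GENCODE vM21 (mouse genome mm10). The unit of measurement was the CpG row, which is the cytosine of a CpG on one strand. All CpG rows inside these genes or within 2 kb upstream were taken if they had at least 10 reads in at least 9 of the 12 libraries, which gave 11792 rows of 1667382 such autosomal rows. The rule used the gene names and the read depth, and no methylation value, but it was set with earlier results of these data known. The libraries were reduced representation bisulfite sequencing (RRBS) of DNA from dissected brain tissue, a mixture of hippocampus and cortex, of 11-month-old mice. RRBS reads short fragments between CCGG sites, and bisulfite turns unmethylated cytosines into bases read as T, so that the methylation level is the share of reads that still show C. The labels gave 4 wild-type animals (Wt, 3 females and 1 male) and 8 Tg2576 animals (Tg, 4 females and 4 males). Tg2576 mice carry a prion-promoter transgene for human APP with the Swedish mutation, and no group received a treatment. The tissue was not sorted, so a level is an average over all cell types of the dissected piece, and a change in level within a cell type cannot be told apart from a change in the share of that cell type.

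Axon guidance works through pairs of ligands and receptors that steer growing axons. Semaphorins mostly repel axons through plexins, Slits repel them through Robo receptors, netrins attract them through Dcc and repel them through Unc5 receptors, and ephrins and Eph receptors signal between touching cells in both directions. In the adult brain many of these genes remain active and act on synapses and dendritic spines. CpG-dense promoters are usually free of methylation, while CpGs inside gene bodies usually carry it, and the regions between these extremes are called partly methylated.

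A pair of promoters and a pair of coding exon stretches are printed first as examples of the contrasts found in these genes: a CpG-rich against a CpG-poor promoter, and an unmethylated against a partly methylated exon. The promoter sequences are those of RefSeq on mm10, 300 bases each (250 before and 50 after the start), 5′ to 3′ on the plus strand, with each CpG in capitals. The promoter of Epha7, an Eph receptor of developing cortical axons, lay at chr4:28812881-28813180 and held 28 CpGs. The promoter of Robo4, a Robo receptor of the blood vessel wall, lay at chr9:37401722-37402021 and held 2.
Epha7 promoter: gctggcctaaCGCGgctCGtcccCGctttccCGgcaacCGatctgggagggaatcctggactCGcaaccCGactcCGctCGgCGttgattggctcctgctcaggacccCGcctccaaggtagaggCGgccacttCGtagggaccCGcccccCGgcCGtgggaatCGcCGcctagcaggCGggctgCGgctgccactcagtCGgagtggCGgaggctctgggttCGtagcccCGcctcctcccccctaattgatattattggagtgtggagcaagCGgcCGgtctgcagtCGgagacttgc
Robo4 promoter: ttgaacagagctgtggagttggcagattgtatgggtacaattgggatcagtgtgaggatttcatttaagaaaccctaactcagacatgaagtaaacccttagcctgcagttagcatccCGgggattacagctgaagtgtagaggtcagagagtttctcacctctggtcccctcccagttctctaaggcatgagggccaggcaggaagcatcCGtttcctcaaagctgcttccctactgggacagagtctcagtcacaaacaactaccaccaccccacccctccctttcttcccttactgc

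Both exon stretches lie on the minus strand of mm10, are printed 5′ to 3′ in the sense of the gene, and show each CpG in capitals. The Robo3 stretch (chr9:37420869-37421053, 185 bases, coding exons apart from a short intronic part) held 16 CpGs and was almost free of methylation, at 1.57% over its rows. The Sema6b stretch (chr17:56124674-56124815, 142 bases, the last exon, coding) held 17 CpGs and was partly methylated, at 28.9%.
Robo3 exon stretch: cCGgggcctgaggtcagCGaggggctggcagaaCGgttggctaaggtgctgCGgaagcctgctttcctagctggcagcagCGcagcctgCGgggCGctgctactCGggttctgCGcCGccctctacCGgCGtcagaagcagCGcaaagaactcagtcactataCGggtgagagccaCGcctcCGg
Sema6b exon stretch: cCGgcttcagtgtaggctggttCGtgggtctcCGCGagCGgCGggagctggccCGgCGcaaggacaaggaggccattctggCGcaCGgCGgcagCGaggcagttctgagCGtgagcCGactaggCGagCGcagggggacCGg
Each stretch holds 3 CCGG sites, the sites that RRBS cuts. RefSeq promoters were found for 56 of the 66 genes (72 promoters). Their median was 20 CpGs in 300 bases, against 7 over all 31396 autosomal promoters, and 79.2% of them held a CCGG against 53.5% of all.

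The 12 libraries held 33619981 to 131446104 reads summed over CpG rows, and 202185 to 694215 reads in the rows of the axon guidance genes, with a median of 38 reads per covered row. A row with few reads gives a coarse level, and intervals from read counts cover counting error only. Each library listed 9272 to 11775 of the 11792 rows. The library labelled Wt male went against its label: its mean level on chromosome X was 47.2%, within the 38.7% to 49.7% of the libraries labelled female and above the 17.1% to 30.5% of the Tg males, and it had 0.0696 rows on chromosome Y per 1000 autosomal rows against 0.347 to 0.503 in the Tg males. It was analysed as a Wt male, and the genotype results below are given with and without it. The labels gave no litters or batches. At the limit of the row choice, the 1121 rows with enough reads in exactly 9 libraries had a mean level of 33.9%, the 983 rows in exactly 8 libraries, which were left out, had 33.8%, and the 7125 rows in all 12 had 6.48%.

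Methylation of the axon guidance genes followed the distance from the transcription start. Rows in the first 1 kb after a start averaged 1.31%, rows between 2 and 5 kb averaged 16.02%, and rows between 10 and 50 kb averaged 51.02%. Over all protein-coding genes the same distances gave 1.89%, 26.4% and 50.6%. The mean level of the axon guidance genes was below that of all genes in the first 5 kb. In the first 1 kb the median row was not, with 0.694% against 0.627%. Between 1 and 2 kb the axon guidance genes averaged 4.47% against 9.81%, and 89.1% of their rows were under 10% against 79.5% of rows. Upstream, between 1 and 2 kb before the start, they averaged 6.71% against 14.6%. From 5 kb onward the values of both sets overlapped in their ranges over animals. In the 12 animals the level between 2 and 5 kb ranged from 12.1% to 17.7% in the axon guidance genes and from 20.3% to 29.5% in all genes. These are descriptions of the rows that RRBS covers, with no test, and a few CpG-rich genes supply many of them.

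**Figure D1:**
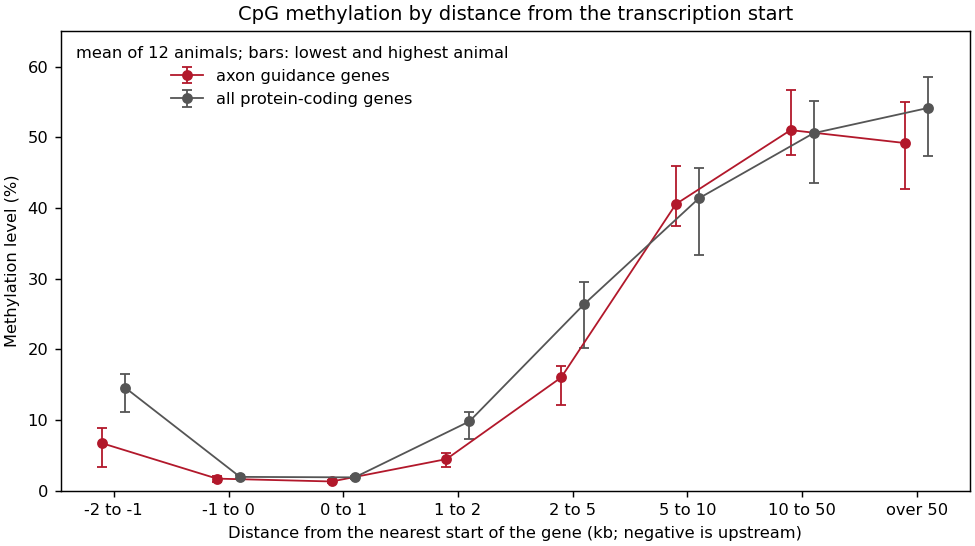
Mean methylation level (%) of CpG rows by distance from the nearest start of the gene, in kb, for the axon guidance genes (red) and all protein-coding genes (grey); bars run from the lowest to the highest of the 12 animals. The red points lie under the grey ones from 1 to 5 kb (16.02% against 26.4% at 2 to 5 kb) and next to them from 5 to 50 kb.

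By annotation, 7135 of the 11792 rows lay in promoters, taken as 1000 bp either side of a start, and averaged 1.39% ± 0.149 in Wt (SD, n = 4) and 1.41% ± 0.0809 in Tg animals (SD, n = 8). The 1272 coding exon rows averaged 46.8% ± 2.94 in Wt and 45.6% ± 2.52 in Tg, and the 2901 intron rows 29.8% ± 2.996 and 29.3% ± 3.46. Among coding exon rows, 43.6% lay between 10% and 80%, against 31.7% of the coding exon rows of all protein-coding genes. A large part of these came from single stretches of Sema6c, Sema6b and Sema5b. They held 112, 97 and 75 rows in that range, not all of them coding in Sema6b and Sema5b. The share without these stretches was not computed. Intron rows were lower than in all genes, with 29.5% against 37.5% over the 12 animals. In each of the 5 classes (promoter, upstream, coding exon, other exon, intron) the difference between Tg and Wt was smaller than the SD between animals, from -1.24 points in other exons to 0.0219 points in promoters. Without the library labelled Wt male, and without any other single library, each class mean moved by less than that SD. Each animal's class level is a mean over the rows its own library covered, so the animals were not compared on the same rows. Tg female 4, the library with the fewest reads, was the lowest Tg animal in each class. In introns it was at 22.2%, with a Tg median of 29.9%, and such values widen the SD. The part of read depth in this was not tested. The class means also depend on which rows are counted. Weighting each gene equally gave 4.27% in promoters, 57.2% in coding exons and 40.9% in introns.

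All 60 promoters with at least 3 rows read in every library were unmethylated. Their median was 0.994%, against 0.877% over all promoters measured, and the highest was 5.80% at Sema3d, a secreted semaphorin, over only 5 rows and with a spread between animals (SD 7.55 in Wt and 10.2 in Tg) larger than its level. None of the 60 reached 10%, whereas 4.18% of all 12692 promoters measured in this way did. Ephb6, an Eph receptor that lacks kinase activity, was lowest at 0.554%. The ligand families and the receptor families had nearly the same median, at 1.03% and 0.921%.

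The other 6 genes had no promoter value by this rule, and they were examined after their values were seen, on rows read in at least 9 libraries. Of these 6, Sema3b and Ntn5 had partly methylated promoter rows and Robo4 highly methylated ones. Sema3b, a secreted semaphorin, averaged 51.4% over 9 rows. Ntn5, a small netrin-like protein, averaged 57.5% over 3 rows. Robo4 averaged 82.8% over the 6 rows within 1000 bp of its start, while its 8 coding exon rows averaged 8.79%. The CpG-poor Robo4 window printed above holds only 2 CpGs, so not all of the 6 rows lie in it. Ephb4, a venous Eph receptor, was unmethylated at 1.08% over 5 rows. Sema3g and Sema4a had no promoter row.

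Gene bodies, taken as the gene without the 1000 bp around its starts, could be compared in 51 of the 66 genes. They ran from 1.46% to 94.4%, with a median of 21.6% against 24.5% over all 5993 bodies measured. Under 10% lay 17 of the 51 (33.3%) and 31.9% of all bodies. Levels within a family were far apart, as the plot of gene bodies by family shows. Semaphorin bodies had the highest median, 41.9% over 13 genes. Robo bodies had the lowest, 9.53% over 3, next to ephrins with 10.8% over 5.

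**Figure D2:**
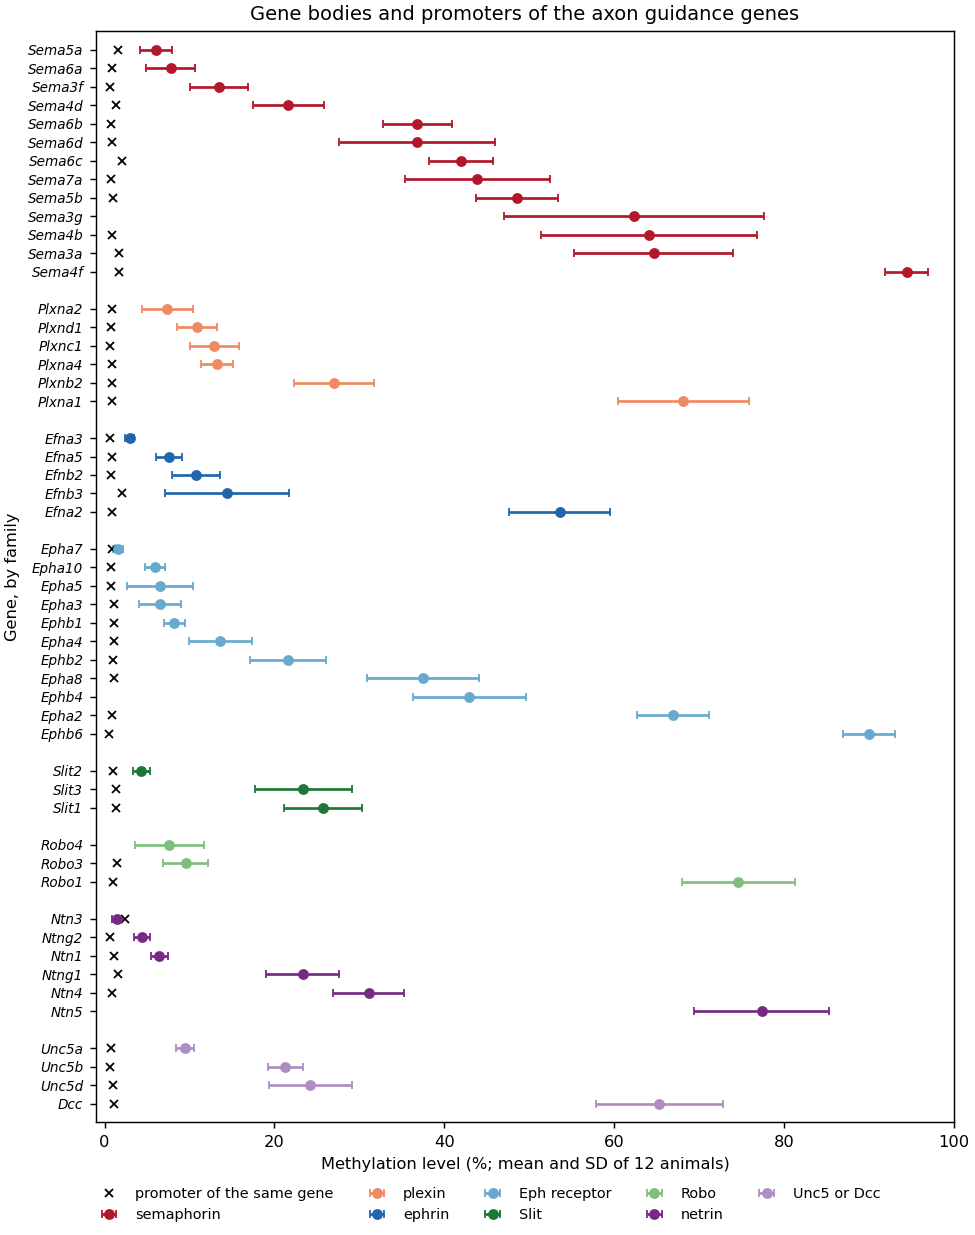
Methylation level (%) of the gene body (coloured points, mean and SD of the 12 animals) and of the promoter (crosses, where measured) of the 51 axon guidance genes with a body value, grouped by family. Promoters lie under 6%, while bodies run from 1.46% (Ntn3) to 94.4% (Sema4f).

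Among the ligands, the highest and lowest bodies were far apart in each family. Sema4f, a membrane semaphorin, had the highest body, at 94.5% ± 2.42 in Wt and 94.4% ± 2.68 in Tg over 6 rows. Sema5a, a membrane semaphorin with thrombospondin repeats, was the lowest semaphorin at 6.07% over 28 rows. Among netrins, Ntn3 was at 1.46% over 50 rows and Ntn5 at 77.3% over 5. Ntn3 spans only 5.68 kb, so nearly all of it lies close to its start. Efna2 was the highest ephrin at 53.6% and Efna3 the lowest at 2.95%. Slit1 was the highest Slit at 25.7% and Slit2 the lowest at 4.31%.

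The receptors showed the same spread. Ephb6 was the highest Eph receptor body at 90.01% over 9 rows, although its promoter was the lowest of the 60. Epha7 was the lowest at 1.57% over 103 rows, and its promoter is the CpG-rich one printed above. Plxna1, a coreceptor for secreted semaphorins, stood highest among plexins at 68.1% over 8 rows, and Plxna2 lowest at 7.41% over 8. Robo1 was at 74.6% and Robo4 at 7.64%, each over 8 rows or fewer. Dcc, the attractive netrin receptor, was at 65.3% over 7 rows, and Unc5a, a repulsive one, at 9.47% over 92. A body value depends on where the covered rows lie, since rows close to the start are low.

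To see where in the body the rows lay, runs of at least 10 body rows with no gap above 200 bp were collected, a step added after the data were seen. The axon guidance genes held 96 such stretches in 36 genes, of which 43 averaged under 10%, 38 between 10% and 60% and 15 at 60% or more. Over all protein-coding genes, 37.98% of 8877 stretches were under 10%, 32.6% were between and 29.4% were at 60% or more. Most low stretches were near a start. Only starts of annotated protein-coding transcripts of the same gene were counted as starts, not those of non-coding transcripts or of other genes. Over 5 kb from any such start, 54 stretches remained. Of these, 32 (59.3%) were partly methylated, against 36.8% over all genes at that distance. Only 8 of the 54 (14.8%) were under 10%, against 26.4% over all genes.

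**Figure D3:**
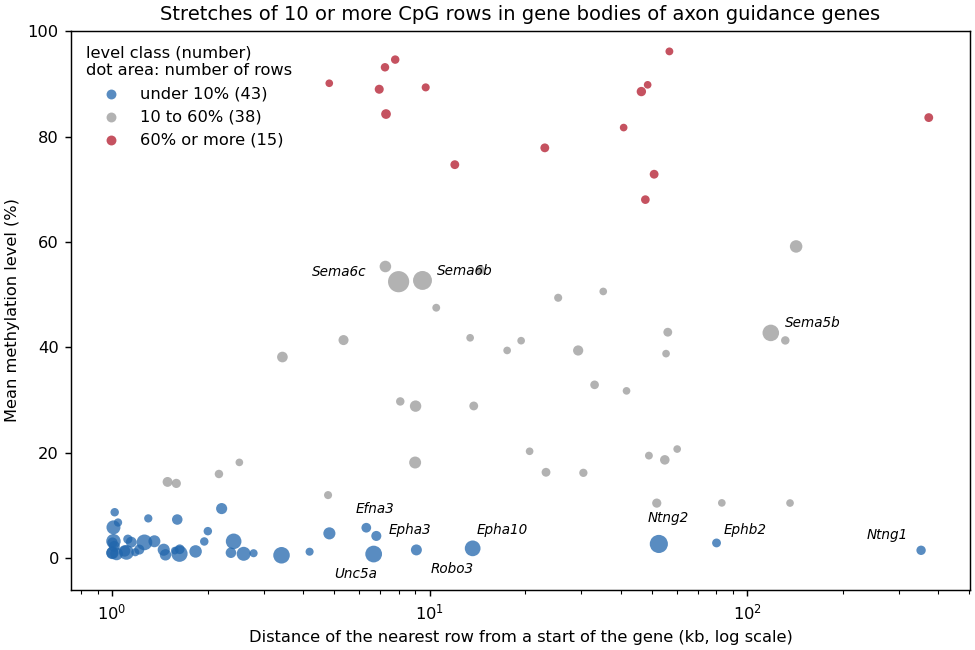
Mean methylation level (%) of the 96 stretches of body CpG rows against their distance from a start of the gene (kb, log scale); dot area grows with the number of rows and colour gives the level class. Named are the 8 stretches under 10% that lie over 5 kb from a start, and the 3 large partly methylated exons of Sema6c, Sema6b and Sema5b.

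The 8 low stretches far from a start lay in Unc5a, Epha3, Efna3, Robo3, Epha10, Ntng2, Ephb2 and Ntng1. The intronic stretch of Unc5a (chr13:54956074-54956405, 6663 bp after the start) was at 0.725% ± 0.411 in Wt and 0.816% ± 0.453 in Tg over 78 rows. The intronic stretch of Epha10, an Eph receptor without a working kinase, lay 13658 bp after the start (chr4:124894557-124895167) and was at 1.87% over 68 rows. Within 5 kb of it, 10 other rows of the gene averaged 38.99%. Ntng2, a membrane-anchored netrin-G, had 93 rows at 2.71%, 52677 bp from a start (chr2:29194649-29195363), of which 50 were coding and 41 intronic. Its relative Ntng1 had 19 rows at 1.501% in its last exon, 352685 bp from a start (chr3:109782599-109782823). Of these, 16 were coding.

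The Robo3 stretch printed above differed most from its surroundings among the 8, of which 5 had other rows of the gene within 5 kb. Robo3, a receptor needed for commissural axons to cross the midline, had 29 rows there at 1.57%, while 5 other rows of the gene within 5 kb averaged 81.0% and none was under 60.9%. Its level was 2.01%, 3.57%, 2.53% and 4.73% in the Wt animals and 0% to 1.94% in the Tg animals, with a median of 0.512%. The lowest Wt animal lay above the highest Tg animal, but only by a small margin (2.01% against 1.94%). How many other stretches had groups that did not overlap was not counted. These levels are means over all rows of the stretch, whereas the overdispersion model used only its rows read in all 12 libraries. On those rows the stretch did not pass the model, fitted over all 6216 stretches with enough such rows (adjusted p = 0.811). No stretch was called by that model in the axon guidance genes or in any gene, and 0% of all stretches were called. Unadjusted p-values under 0.05 were found at 2 of 79 axon guidance stretches (Robo3 and Sema3f) and at 5.21% of all stretches.

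The 3 partly methylated stretches with the most rows, chosen after their values were seen, lay in the membrane semaphorins Sema6c, Sema6b and Sema5b. In Sema6c, 130 coding rows of the last exon (chr3:95172358-95173120) averaged 54.0% ± 4.96 in Wt and 52.0% ± 3.13 in Tg. In Sema6b, 102 rows of the last exon (chr17:56123846-56124350) averaged 50.6% ± 7.74 and 53.5% ± 2.49. In Sema5b, 76 rows (chr16:35660189-35660622), most of them coding, averaged 41.5% ± 3.58 and 43.5% ± 3.50. Single rows in these exons ranged from 5.30% to 94.4%, and 112, 97 and 75 of their rows lay between 10% and 80%. The median SD of a row over the 12 animals was 16.5, 16.1 and 15.4 points. Their CpG density was above that of most unmethylated stretches: the ratio of observed to expected CpGs was 0.823, 0.789 and 0.740, against a median of 0.651 over the 43 stretches under 10%.

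Whether Tg and Wt animals differed was first asked row by row with the binomial model, a logistic regression of the read counts on genotype and sex. A differentially methylated site (DMS) had a Benjamini-Hochberg adjusted p under 0.1 over all 1613536 rows tested and a difference of at least 10 percentage points between read-weighted levels. Of the 11480 axon guidance rows tested, 430 (3.75%) were DMS, against 3.77% of all rows. In Tg animals 279 were higher (2.43%, against 2.21% of all rows) and 151 lower (1.32%, against 1.55%). These shares are close to those of all rows. The binomial model takes reads of one animal as independent draws. In the overdispersion model, which lets animals differ by more than counting error, no axon guidance row and no other row was called (0% of all rows). The smallest adjusted p was 0.509, and unadjusted p-values under 0.05 were found at 1069 axon guidance rows (9.31%) and at 9.48% of all rows. Limma on logit levels also called none. This does not show that the levels were equal. Without the library labelled Wt male the binomial model called 358 rows (3.12%, against 3.31% of all rows), of which 195 were higher and 163 lower in Tg.

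Most DMS lay outside promoters; rows near 0% in both groups cannot reach the threshold of 10 points. Of the 430, 257 were in introns, 131 in coding exons, 27 in other exons, 14 in promoters and 1 upstream. In coding exons 10.9% of the tested rows were DMS, against 8.98% in all protein-coding genes, and in introns 9.27% against 10.9%. In promoters it was 0.199% against 0.516%. The median dispersion, which is 1 when animals differ by counting error alone, was 3.48 among these DMS against 1.43 over all axon guidance rows. Of the 66 genes, 52 had at least 1 DMS, a count that depends on how many rows were tested per gene. The same share over all protein-coding genes was not computed. By family the share of tested rows ran from 1.29% in ephrins to 6.97% in Slits. Sema6b had the most, 37 DMS of 294 rows tested, 32 of them higher in Tg, followed by Slit3 with 28 (24 higher), Ephb2 with 27 (16 higher) and Sema5b with 26 (16 higher). The 3 partly methylated semaphorin exons held 18 DMS in Sema6c, 18 in Sema6b and 15 in Sema5b. In Tg, 9 of those of Sema6c were higher and 9 lower, 15 and 3 of those of Sema6b, and 11 and 4 of those of Sema5b. They were among 111, 97 and 75 rows tested. These counts by gene and by exon were not set against those of other genes.

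The opposite strand of the same CpG gives a second reading of the same animals. It was tested for 207 of the 430 DMS. The sign was the same in 121 (58.5%), and in 34 (16.4%) the opposite strand also differed by at least 10 points in that direction. Over all autosomal DMS these shares were 54.4% and 16.7%.

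No row was called by both models, so rows are named here by a fixed rule from the 18 DMS at which all Tg animals lay on one side of all Wt animals (0.157% of the axon guidance rows, against 0.144% of all rows). The 8 with the smallest p in the overdispersion model, at most 1 within 1000 bp, are shown in 30-base windows of mm10, 5′ to 3′ on the strand that was read, with the measured CpG in capitals.
Slit3 intron, minus strand (chr11:35565549-35565578): ccagccctatttatCGaggaaggaaaagag
Efnb2 non-coding exon part, plus strand (chr8:8620311-8620340): taccgtgtcctcccCGggctctgcagaggc
Ntn4 promoter, minus strand (chr10:93640782-93640811): gcacccaagggcctCGcctgggaaacagtc
Plxnd1 intron, plus strand (chr6:115974293-115974322): agccactgggaccaCGtgcacgtggctgca
Sema6c non-coding exon part, minus strand (chr3:95173852-95173881): gctctcctgggcccCGgctcagcccacaca
Sema6b coding exon, minus strand (chr17:56124249-56124278): ccagcccggaccgcCGgcgggtggtgtccg
Sema5b coding exon, plus strand (chr16:35660486-35660515): tggaggatctcctgCGcagcgggagcacgt
Sema5b intron, minus strand (chr16:35581511-35581540): gagctacacaaaagCGctgcaaacagctct
Each of the 8 had an adjusted p of 0.509 in the overdispersion model. Choosing rows whose ranges do not overlap makes them look clear-cut, so their values are descriptions. The measured CpGs of Efnb2, Sema6c and Sema6b lie inside a CCGG, the site that RRBS cuts, and the part of this in their levels was not tested.

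Among the ligand rows, the Slit3 intron row (444340 bp after the start) was at 12.5%, 15.8% and 8.70% in 3 Wt animals, with Wt female 2 not covered, and at 17.4%, 50.6% and 65.2% (lowest, median and highest) in 8 Tg animals. All Tg animals lay above the Wt animals, and 7 of the 8 by a wide margin (lowest of these 36.4%). The Efnb2 row, in a non-coding exon part of an ephrin of arteries and synapses, was at 21.4%, 28.6%, 40% and 42.9% in Wt and at 50%, 67.9% and 95.2% in Tg. Here the gap between the groups was small against the spread inside Tg. The Ntn4 row, 252 bp before the start of a netrin of basement membranes, was at 5.56%, 20.7% and 15.8% in 3 Wt animals and at 0% in all 6 Tg animals with enough reads. With the reads of these Tg animals pooled, 0 of 162 allow a level of up to 1.85%. This limit covers counting error only, not differences between animals. Its opposite strand differed the other way, with 0.926% in Wt and 4.83% in Tg. The row was lower in Tg by 13.6 points when weighted by reads, and by 5.48 points once both strands were summed.

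The semaphorin rows lay in or near the large partly methylated exons, apart from the Sema5b intron row. The Sema6c row, in a non-coding exon part, was at 5.26% in Wt female 1 and 0% in the other 3 Wt animals, and at 14.8%, 18.0% and 47.1% in Tg. Its opposite strand was lower in Tg, with 27.8% against 34.4%, and with both strands summed the difference shrank from 21.9 to 2.16 points. The Sema6b coding row was at 4.88%, 8.82%, 0% and 3.33% in Wt and at 12%, 20.8% and 34.8% in 7 Tg animals. The Sema5b coding row was at 14.8%, 18.5% and 20.9% in 3 Wt animals and at 25%, 42.3% and 59.1% in Tg. The Sema5b intron row went the other way, at 40%, 37.5% and 40% in 3 Wt animals and at 0%, 3.23% and 17.6% in 7 Tg animals. The opposite strand of the Sema5b coding row averaged 33.7% in Wt and 35.9% in Tg, and that of the intron row 18.999% and 17.9%, differences in the same direction but much smaller. The single receptor row, in an intron of Plxnd1, the receptor of a vascular semaphorin, was at 10%, 0%, 9.09% and 14.8% in Wt and at 22.2%, 27.3% and 50% in Tg. With both strands summed its difference went from 19.9 to 8.82 points.

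**Figure D4:**
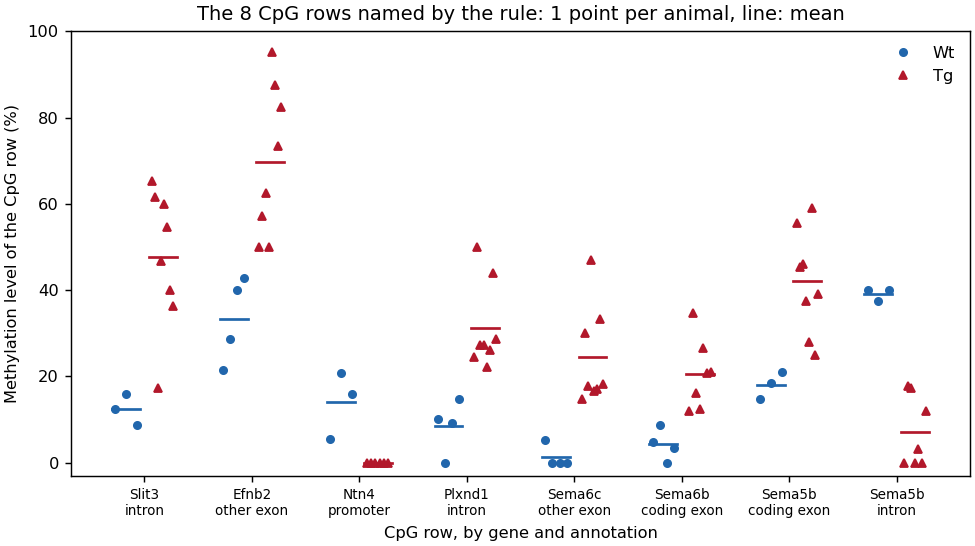
Methylation level (%) of the 8 named CpG rows in each animal with at least 10 reads (circles, Wt; triangles, Tg; lines, group means). The groups do not overlap because rows were chosen that way; the Ntn4 and the Sema5b intron rows are lower in Tg and the other 6 higher.

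The gene was then taken as the unit, with the reads of each promoter or body summed in each animal. None of the 60 axon guidance promoters was called by the overdispersion model (adjusted p under 0.1), against 1 of all 12692 promoters (0.00788%). Unadjusted p-values under 0.05 were found at 4 of the 60 (6.67%, against 6.16% of all promoters), all 4 of them ligand genes. Limma also called none, with 3 under 0.05 unadjusted. Tg and Wt differed by -1.44 to 2.73 points, with a median of 0.0893 points (0.0238 over all promoters), and 34 of the 60 were higher in Tg. The smallest p was that of Efnb2, at 0.995% ± 0.284 in Wt and 0.655% ± 0.134 in Tg over 204 rows (adjusted p = 0.77 in the overdispersion model). Its Wt animals ranged from 0.659% to 1.24% and its Tg animals from 0.468% to 0.879%, so that the groups overlapped. Ntng1 followed at 2.07% ± 0.57 and 1.39% ± 0.31 (adjusted p = 0.791 in the same model), and Sema4f at 1.28% ± 0.45 and 1.88% ± 0.734 (adjusted p = 0.804).

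None of the 51 gene bodies was called either, against 1 of all 5993 bodies (0.0167%). Unadjusted p-values under 0.05 were found at 3 of the 51 (5.88%, against 5.72% of all bodies), and limma called none, with 2 under 0.05 unadjusted. Tg and Wt bodies differed by -5.17 to 7.24 points, with a median of 0.57 points (0.354 over all bodies), and 31 of the 51 (60.8%) were higher in Tg, as were 59.7% of all bodies. Plxna4, a plexin for class 6 and class 3 semaphorins, had the smallest p. Its body was at 11.8%, 14.7%, 10.6% and 9.51% in Wt and at 12.6% to 15.8% in Tg, over 49 rows (adjusted p = 0.79 in the overdispersion model). Wt female 2 lay among the Tg animals. On rows with at least 20 reads the difference went from 2.35 to -0.0405 points, so that its direction turned. The Ntng1 body was at 22.1%, 13.8%, 22.0% and 21.7% in Wt and at 18.6% to 29.0% in Tg (adjusted p = 0.829 in the same model), and on rows with at least 20 reads the difference went from 5.12 to 0.549 points. The Efnb3 body, with 3 rows and 55 to 228 reads per animal, was at 14.6% to 20.7% in Wt and at 2.02% to 26.2% in Tg (adjusted p = 0.829). Without the library labelled Wt male, 0 promoters and 0 bodies of these genes were called, and 4 promoters and 4 bodies had unadjusted p-values under 0.05.

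**Figure D5:**
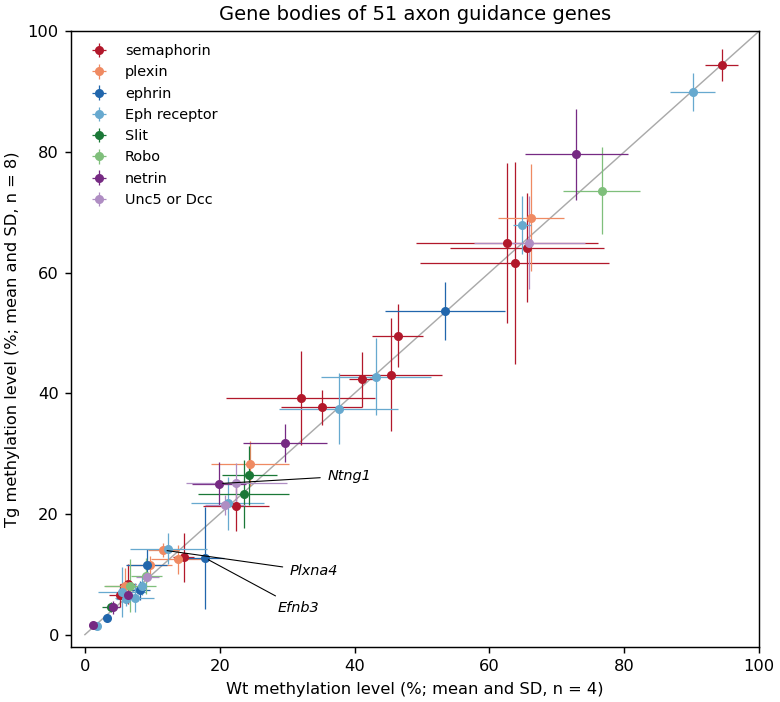
Gene body methylation level (%) in Wt (x axis, mean and SD, n = 4) against Tg (y axis, mean and SD, n = 8) for the 51 axon guidance genes, coloured by family; the line marks equal levels. The points lie along the line, and the 3 bodies with the smallest p (Plxna4, Ntng1 and Efnb3) are named.

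Single CpGs read on both strands were used to see whether a spread between animals on 1 strand was repeated on the other. Over 2497 such CpGs with both strands read in all 12 libraries, the strand means differed by a median of 0.669 points. They differed by under 10 points at 2474 (99.1%). The axon guidance rows read in all 12 libraries had a median level of 0.95%, and CpGs near 0% on both strands cannot differ by 10 points. The CpGs that varied most on both strands, 1 per gene, lay in Ephb2, Ntn4, Sema5b and Sema6c. The Ephb2 intron CpG (chr4:136702684) ran from 0% to 72.4% on the plus strand (SD 20.1) and from 0% to 80.6% on the minus strand. In the animal with the lowest plus strand value, Tg female 4, the minus strand was at 38.5%, and in the animal with the highest, Wt female 1, it was at 35.0%. The Ntn4 coding CpG (chr10:93644583) was at 0% on the plus strand of Tg male 1 and at 70% on its minus strand. In Tg female 1, the highest on the plus strand at 65.6%, the minus strand was at 64.3%. The shallowest library of each strand had 10 to 15 reads at these CpGs. The Sema5b CpG (chr16:35660409) and the Sema6c CpG (chr3:95172870) lay in the partly methylated semaphorin exons or next to them.

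Other genes of the pathway, a list of 53 coreceptors, adhesion molecules and cytoskeletal effectors, was measured in the same way. Their promoters had a median of 0.843% over 50 genes, 49 of them under 10%. None was called, higher or lower, by the overdispersion model, and unadjusted p-values under 0.05 were found at 2, both higher in Tg. These were Farp1, a plexin effector, at 0.481% ± 0.154 in Wt and 0.995% ± 0.444 in Tg, and Gap43, a growth cone protein, at 0.628% ± 0.221 and 1.62% ± 1.43. Their 39 bodies had a median of 19.3%, with 0 called and 1 under 0.05 unadjusted. That was Dscaml1, an adhesion molecule related to Dscam, at 13.5% ± 0.932 in Wt and 16.2% ± 1.59 in Tg. The next body was Cfl1, an actin-severing protein, at 0.275% ± 0.549 and 0.135% ± 0.263.

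Cell type markers were examined because the tissue was mixed. Of 8 neuron markers, 7 promoters were under 10%, with Camk2a, a kinase of excitatory neurons, at 11.2%. Of the astrocyte markers measured, Slc1a2 and Slc1a3, both glutamate transporters, were at 0.97% and 0.971% and Aldh1l1 at 26.1%. All 3 oligodendrocyte promoters were under 10%, from 0.774% at Cnp to 7.85% at Sox10, and the endothelial Cldn5 was at 2.18%. No promoter of the microglia list or of the list from outside the brain had enough rows. None of the 15 marker promoters measured was called between Wt and Tg by the overdispersion model. Unadjusted p-values under 0.05 were found at Map2, a neuronal microtubule protein, with 0.167% ± 0.144 in Wt and 0.596% ± 0.372 in Tg, and at Slc1a3, with 0.225% ± 0.293 and 1.34% ± 1.01. Among the marker gene bodies measured none was called either, and none had an unadjusted p-value under 0.05. The smallest p was that of Cnp, an oligodendrocyte enzyme, whose body (3 rows) was at 55.6% ± 27.3 in Wt and 36.7% ± 19.1 in Tg. The body of Mag, a myelin protein, was at 38.8% ± 7.47 and 33.1% ± 5.72. The oligodendrocyte bodies did not share a direction: of the 4 measured, 2 were lower in Tg and 2 higher. The higher ones were Sox10, at 25.8% ± 9.34 in Wt and 31.1% ± 14.96 in Tg, and Mbp, at 17.2% ± 3.13 and 19.8% ± 4.01. Promoter methylation of such CpG-rich genes does not measure the share of a cell type, and its part in the results was not tested.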

How the data were processed

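RRBS libraries of brain DNA from 12 mice were made and sequenced in paired-end mode by a commercial service for the authors, aligned to mm10 with Bismark and read into methylKit, per the labels and the study's methods; versions are not given in the sources used here. The deposited values are read counts per CpG cytosine and strand (coverage, C and T), 1 file per animal, with a minimum of 10 reads. Rows listed more than once in a library were dropped, and coverage was taken as C plus T. Of the rows read in 9 or more libraries, 99.997% lay in a CpG of mm10.

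Rows tested had at least 10 reads in 3 Wt and 6 Tg libraries. Genotype was tested with sex as covariate by a binomial likelihood-ratio test and by the same test divided by a dispersion per row, never below 1 (F test). P-values were adjusted by Benjamini-Hochberg over all rows, promoters, bodies or stretches tested. Promoters, bodies and stretches needed 3 rows read in all 12 libraries, and only such rows entered their tests. Both tests were checked on simulated data. Alternatives included limma 3.58.1 (logit levels, pseudocount 1). Python 3.11.15, numpy 2.4.6 and scipy 1.17.1 were used. Unc50, an unrelated gene whose name resembles Unc5, was left out.

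Named rows were to be those that passed both tests; the 8 places left were given to DMS with groups that did not overlap, in order of overdispersion p and at most 1 within 1000 bp. Named genes were the highest and lowest body of each family, the 3 promoters and 3 bodies with the smallest p, promoters at 10% or more, the 4 CpGs varying most on both strands, and 2 genes of the pathway list. Members and lists were chosen with earlier results of these data known. Replicates are separate animals by the labels.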

Additional observations from a re-analysis of the deposited data

Results flagged for a closer look

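A Dixon test for a single sample far from the others of its group was applied to the class levels, the named promoters and bodies and the named rows. It marked 5 of 65 groups of values, where chance marks about 1 in 20. In upstream rows, Tg female 4, the library with the fewest reads, was at 3.35% and the other 7 Tg animals at 5.32% to 6.91%. In coding exon rows, Wt female 1 was at 51.1% and the other 3 Wt animals at 44.7% to 45.7%. In the Ntng1 body, Wt female 2 was at 13.8% and the others at 21.7% to 22.1%, and this animal lowers the Wt mean of one of the 3 bodies with the smallest p. In the Ntn5 body, Tg female 4 was at 62.9% and the other Tg animals at 75.5% to 85.9%. At the named Sema6c row, Wt female 1 was at 5.26% and the other 3 Wt animals at 0%.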

How the results depend on the processing

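The count of 430 axon guidance DMS in the binomial model depended on which rows were tested. It was 120 with a minimum of 20 reads (1.57% of the rows tested, against 1.37% of all rows), 123 in rows read in all 12 libraries (1.73% against 1.48%) and 47 with a difference of at least 25 points (0.409% against 0.389%). It was 455 without the sex covariate (3.96% against 4.01%), 502 in the females alone (4.37% against 4.62%), 296 CpGs with both strands summed (4.17% against 4.31%) and 417 with the mean of animal levels (3.63% against 3.59%). Leaving out 1 library gave 358 to 600, the highest without Wt female 1 (5.23% against 4.71% of all rows, 443 of them higher in Tg). Without Wt female 3, 234 were higher and 212 lower. The split of higher against lower DMS therefore moved with single Wt libraries.

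The counts of rows, promoters, bodies and stretches called by the overdispersion model were 0 under each alternative run, limma and every omission of 1 library included (range 0 to 0). Of the 6 named promoters and bodies, the Plxna4 body reversed to -0.0405 points with a minimum of 20 reads, where fewer rows were counted, and the cause was not tested. The 8 named rows kept their direction wherever an alternative gave them a value. Those of Slit3, Ntn4, Sema6b and Sema5b were not among the rows in all 12 libraries, and those of Ntn4 and the Sema5b intron had no value with a minimum of 20 reads. The rows of Ntn4, Plxnd1 and Sema6c were no longer DMS with both strands summed, and those of Ntn4, Plxnd1, Sema6c and Sema6b were below 25 points.

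Mean levels by class moved with the rows counted. Rows in all 12 libraries gave 1.06% in promoters, 3.53% upstream, 32.9% in coding exons and 15.4% in introns. A minimum of 20 reads gave 1.08%, 2.87%, 26.8% and 14.9%, and 19.4% in other exons. Weighting each gene equally gave 4.27%, 24.8%, 57.2% and 40.9%, and 49.1% in other exons, with a difference between Tg and Wt of 0.495 points in promoters and -2.05 points upstream. Leaving out 1 library kept the class means within 1.39% to 1.42% in promoters, 5.96% to 6.33% upstream, 45.5% to 46.4% in coding exons, 29.4% to 30.1% in other exons and 29.0% to 30.1% in introns. The differences stayed within -0.033 to 0.081, -0.676 to -0.0356, -1.86 to 0.272, -2.13 to 0.207 and -1.29 to 0.979 points in the same order. The alternatives for the stretches were chosen after seeing the data. With gaps of at most 100 bp there were 97, and leaving out 1 library gave 96 to 96 stretches, 43 to 45 of them under 10%, 36 to 38 between 10% and 60% and 15 to 16 at 60% or more. No paired analysis was made, because the labels give no litters or other pairing of Wt with Tg animals. With 4 Wt animals, 1 of which went against its sex label, and rows of few reads, the overdispersion model called no single CpG. Large differences were not called either: the named Efnb2 row differed by 41.4 points when weighted by reads (adjusted p = 0.509 in that model).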
